A study of Mus musculus with 12 samples.

Results

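The SLAM family (signaling lymphocyte activation molecules) was followed in mouse A20 lymphomas that had been injected with an agonist of Toll-like receptor 4. The genes were chosen by their symbols, as 7 receptors (Slamf1, Slamf6, Slamf7, Cd48, Cd84, Ly9 and Cd244) and the adaptor Sh2d1a, which are 8 of the 770 genes in the table of counts. Another 20 genes of the table are reference genes used for scaling, so 750 genes, all 8 SLAM genes among them, were compared between groups. RNA was counted on an nCounter mouse panel of cancer immunology genes (PanCancer Immune Profiling), where each RNA molecule caught by a barcoded probe pair is counted directly.

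A20 is a B-cell lymphoma line that arose in a Balb/c mouse. Each of 12 female Balb/c mice carried a subcutaneous tumor grown from implanted A20 cells, and treatment started when tumors were established, about 7 days after implantation. Tumors received 3 injections into the tumor, given every other day, and were taken 2 h after the last one. The PBS group (n = 4) received buffered saline and the SE group (n = 4) the oil-in-water stable emulsion without agonist. The GLA-SE group (n = 4) received 10 µg of glucopyranosyl lipid A (GLA), a synthetic Toll-like receptor 4 agonist, in 50 µl of 2% stable emulsion, a formulation the study calls G100. All tumors came from 1 parental cell line, and each tumor was a mixture of lymphoma cells and the host's own cells. GLA-SE against PBS asks what the whole formulation changed, SE against PBS what the emulsion changed, and GLA-SE against SE what the agonist added.

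SLAM receptors are immunoglobulin superfamily proteins on hematopoietic cells. Most of them bind another copy of themselves on a neighboring cell, whereas Cd244 (2B4) binds Cd48, which is held in the membrane by a glycolipid anchor and has no signaling tail. The tails of the others carry tyrosine motifs that bind small adaptors, chiefly the SLAM-associated protein encoded by Sh2d1a, and through it the kinase Fyn. The family is known for its part in contacts between T cells and B cells, in germinal centers, and in natural killer (NK) cell killing of lymphoid targets.

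In RefSeq's annotation of GRCm38.p6 the 7 receptor genes lie in 1 cluster on chromosome 1, in the order Cd244 (listed there as Cd244a), Ly9, Slamf7, Cd48, Slamf1, Cd84 and Slamf6, with 1 other protein-coding gene between the first and the last. Sh2d1a lies on chromosome X. RefSeq promoters, from 250 bases before to 50 bases after the transcript start, matched 6 of the 8 genes, and Ly9 and Sh2d1a had no entry. Both strands of these 6 promoters were searched for 5 short motifs of factors that act downstream of Toll-like receptors or interferons, or in myeloid and B cells. They were NF-kappaB (GGANTTTCC), the interferon-stimulated response element or ISRE (GAAANNGAA), the gamma-activated sequence or GAS (TTCNNNGAA), AP-1 (TGANTCA) and PU.1 (GAGGAAGT). Whether matches go with the size of the RNA changes was not tested. The 3 promoters that held a match are shown. They are written 5′ to 3′ on the strand of the gene, in the reference sequence of another mouse strain than Balb/c, with matches in capitals.
Slamf7, chr1:171648950-171649249, minus strand: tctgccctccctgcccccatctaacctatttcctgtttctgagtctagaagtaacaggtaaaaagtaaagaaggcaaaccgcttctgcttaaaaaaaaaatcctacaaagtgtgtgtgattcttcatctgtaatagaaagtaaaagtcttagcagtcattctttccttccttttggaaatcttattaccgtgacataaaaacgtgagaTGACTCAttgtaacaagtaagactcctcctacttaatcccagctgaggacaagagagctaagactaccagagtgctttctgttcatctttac
Cd84, chr1:171839447-171839746, plus strand: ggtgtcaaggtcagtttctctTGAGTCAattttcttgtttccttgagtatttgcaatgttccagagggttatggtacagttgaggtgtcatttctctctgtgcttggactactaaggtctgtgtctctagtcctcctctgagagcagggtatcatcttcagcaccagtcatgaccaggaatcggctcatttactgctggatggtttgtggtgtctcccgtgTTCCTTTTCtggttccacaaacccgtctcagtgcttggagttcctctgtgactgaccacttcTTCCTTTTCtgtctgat
Cd244, chr1:171558943-171559242, plus strand: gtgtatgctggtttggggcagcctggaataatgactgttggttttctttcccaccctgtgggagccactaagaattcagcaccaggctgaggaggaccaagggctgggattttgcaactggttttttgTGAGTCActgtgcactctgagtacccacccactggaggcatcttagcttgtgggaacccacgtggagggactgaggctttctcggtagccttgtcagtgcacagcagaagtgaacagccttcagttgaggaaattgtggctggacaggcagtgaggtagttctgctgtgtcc

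The AP-1 letters stood in all 3 of these promoters, starting at position -42 from the transcript start in Slamf7, -229 in Cd84 and -122 in Cd244. Cd84 also held the ISRE letters on the reverse strand at -29 and at 33. Of the 32851 promoters in the table, 7.81% held the AP-1 letters, 8.56% those of ISRE, 8.3% those of GAS, 3.2% those of PU.1 and 1.25% those of NF-kappaB. The promoters of Slamf1, Slamf6 and Cd48 held none of the 5 motifs. A match describes these letters only, and binding was not measured.

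Totals ran from 810260 to 1612415 counts per tumor. Counts were scaled to the 16 most stable of the 20 reference genes, and values below are normalized counts on that scale. SE replicate 4 stood apart, with a geometric mean of 959 counts over the 20 reference genes against 1460 to 2587 in the other SE tumors (scale factor 0.496), and the highest normalized panel median of all tumors (485). B-cell markers were present in every tumor, with summed normalized counts of 13915 to 23116 over 7 genes. None of the markers of any cell type was at 0, but probes for negative controls were not used. A count above 0 therefore does not show that a cell type was present. Some markers were low in PBS tumors, such as Tnfrsf17 (plasma cell, mean of 8.59 normalized counts) and Cxcr2 (neutrophil, 18.5). Fewer cells of a type and less RNA per cell cannot be told apart in whole tumors. Because probes catch different RNAs with different efficiency, levels are compared between tumors for each gene and not between genes.

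Relative to the reference genes, 7 of the 8 SLAM genes were higher in GLA-SE than in PBS tumors (edgeR's quasi-likelihood test, adjusted p under 0.05), but the direction of 6 of the 8 turned when tumors were scaled to the median of the panel, by TMM or by DESeq2's own size factors. The same test called 68.4% of the 750 panel genes higher and 0.4% lower, so a call of higher was common to most of the panel and not particular to the SLAM genes. The 8 genes had a median log2 fold change of 0.79 and the panel one of 0.90. All GLA-SE tumors lay above all PBS tumors for 6 SLAM genes, as for 63.7% of the panel. By point estimate, Slamf1 and Cd84 changed by more than the panel median, and the other 6 by less.

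**Figure D1:**
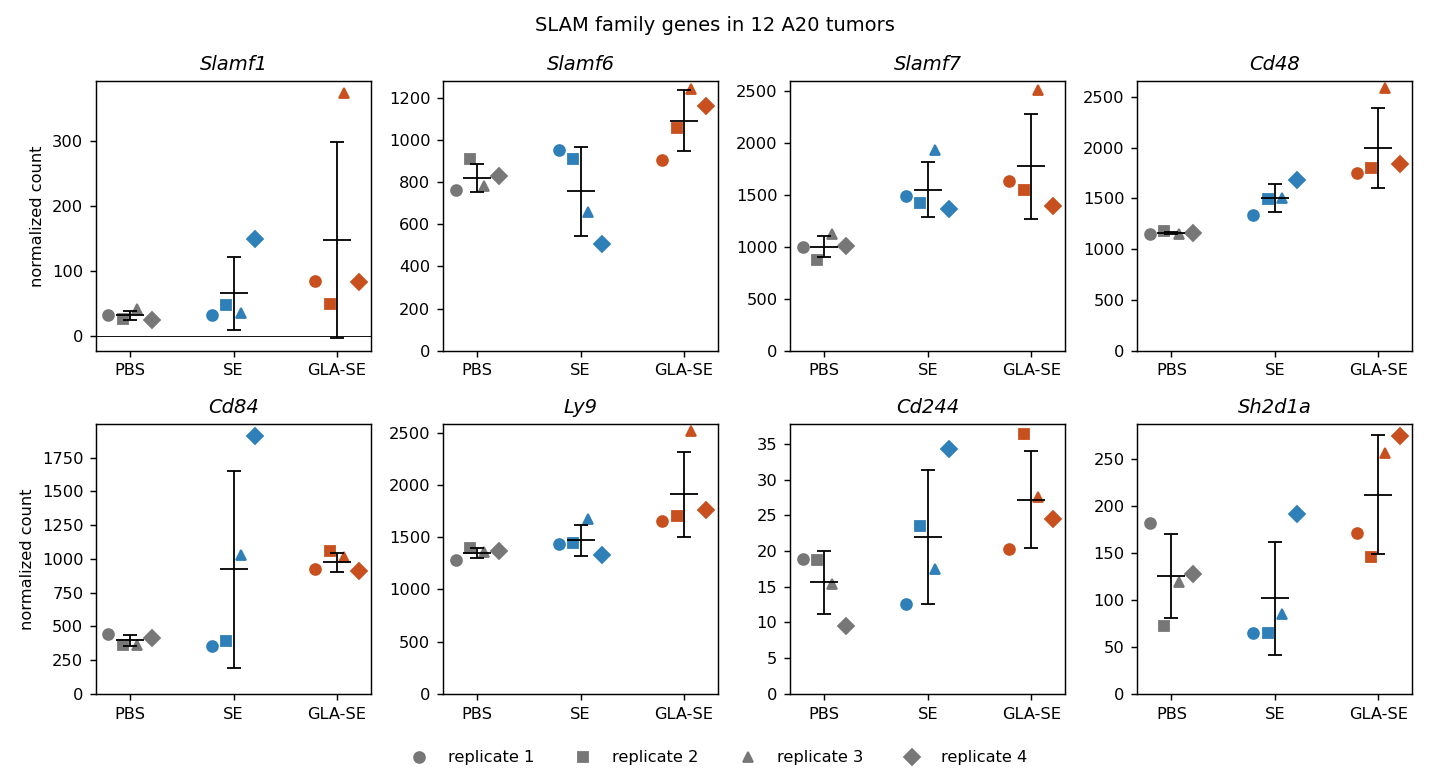
Normalized count (y axis, linear) of each SLAM gene in the 12 tumors, by treatment group (x axis). Each symbol is 1 tumor, horizontal bars are means and error bars are SD (n = 4); the 4 Cd84 values of the GLA-SE group lie between 907 and 1057, whereas those of the SE group run from 356 to 1912.

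Among the receptors that bind themselves, Slamf1 (CD150), which also senses bacteria on macrophages and whose human counterpart is an entry receptor for measles virus, was a low-count gene in the PBS tumors. Its normalized counts were 32.2, 27.1, 42.4 and 25.4 in PBS replicates 1 to 4, against 85.1, 49.9, 374 and 82.8 in GLA-SE replicates 1 to 4. The groups did not overlap, and GLA-SE replicate 3 was far above the rest. The log2 fold change was 2.21 (standard error 0.63, adjusted p = 0.0129 by edgeR's quasi-likelihood test), and without GLA-SE replicate 3 it was 1.19 (adjusted p = 0.00586 by edgeR). The call was lost with panel median scaling (0.77, adjusted p = 0.232 by edgeR) and with TMM (1.19, adjusted p = 0.101 by edgeR). In the SE tumors Slamf1 was at 32.0, 48.1, 34.9 and 149, and replicates 2 and 4 lay above the PBS range, replicate 4 by far the most. SE against PBS gave 1.03 (standard error 0.55, adjusted p = 0.271 by edgeR), or 0.26 without SE replicate 4.

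Cd84, a receptor of B cells, macrophages and platelets, gave the smallest adjusted p of the family. PBS replicates 1 to 4 had 445, 359.6, 365 and 413 normalized counts, and GLA-SE replicates 1 to 4 had 927, 1057, 1012 and 907. Every GLA-SE tumor thus had more than 2 times the count of every PBS tumor, and the GLA-SE tumors varied little, with a coefficient of variation of 7.26%. The log2 fold change was 1.30 (standard error 0.12, adjusted p = 0.000154 by edgeR's quasi-likelihood test), and 1.26 to 1.36 with any 1 tumor left out. Scaling mattered more, and Cd84 was at 0.40 with TMM (adjusted p = 0.0164 by edgeR) and at 0.02 and no longer called with the panel median (adjusted p = 0.906 by edgeR). The SE tumors fell apart, with 356 and 396 in replicates 1 and 2, inside or next to the PBS range, and 1026 and 1912 in replicates 3 and 4. Their difference from PBS was 1.22 on the log2 scale (standard error 0.52, adjusted p = 0.256 by edgeR), and 0.58 without SE replicate 4.

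Slamf7 (CRACC), a receptor of NK cells, activated B cells and plasma cells that signals through another adaptor than the product of Sh2d1a, had 999, 873, 1119 and 1005 normalized counts in PBS tumors. GLA-SE tumors had 1635, 1547, 2512 and 1396. These groups did not overlap, and the log2 fold change was 0.83 (standard error 0.19, adjusted p = 0.00540 by edgeR's quasi-likelihood test). SE tumors, at 1487, 1416, 1933 and 1359.6, also lay wholly above the PBS tumors, and their range overlapped that of the GLA-SE tumors. For SE against PBS the log2 fold change was 0.63 (standard error 0.15, unadjusted p = 0.00332 and adjusted p = 0.256 by edgeR's test).

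Ly9 (CD229), found on most B and T cells, was among the steadiest genes of the family in PBS tumors. It had 1283, 1395, 1355 and 1367 normalized counts in PBS tumors and 1653, 1704, 2517 and 1756 in GLA-SE tumors. The groups did not overlap, although the rise was small, at 0.50 on the log2 scale (standard error 0.15, adjusted p = 0.0144 by edgeR's quasi-likelihood test). SE tumors had 1432, 1446, 1674 and 1325, of which replicate 4 lay within the PBS range, and their log2 fold change against PBS was 0.12 (standard error 0.12, adjusted p = 0.480 by edgeR).

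Slamf6 (Ly108), a receptor of T, B and NK cells that is used to mark progenitor-like CD8 T cells in tumors, had the smallest rise of the family. PBS tumors had 761, 908, 782 and 831 normalized counts and GLA-SE tumors 904, 1057, 1242 and 1161. GLA-SE replicate 1 lay just below PBS replicate 2, so the groups overlapped. The log2 fold change was 0.41 (standard error 0.13, adjusted p = 0.0180 by edgeR's quasi-likelihood test), while the exact permutation test gave p = 0.0571, and with the replicate number as a block edgeR's adjusted p was 0.0530 and without PBS replicate 3 it was 0.0506. Slamf6 ran the other way from Cd84 among SE tumors, with 949.9 and 909.9 in replicates 1 and 2 and 660.1 and 504 in replicates 3 and 4. Its log2 fold change in SE against PBS was -0.12 (standard error 0.22, adjusted p = 0.728 by edgeR).

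Cd48 and Cd244 form the ligand and receptor pair of the family. Cd48 was nearly the same in all PBS tumors, with 1150.5, 1174, 1148 and 1156 normalized counts, a coefficient of variation of 1.03%. GLA-SE tumors had 1750.4, 1798, 2582 and 1841, and SE tumors had 1338, 1489.6, 1499.7 and 1676. On this reference gene scale the 3 groups therefore did not overlap at all, in the order PBS, SE and GLA-SE. The panel's shares without overlap in this direction were 8% for SE against PBS, 14.7% for GLA-SE against SE and 63.7% for GLA-SE against PBS. The panel median had the same order, with log2 fold changes against PBS of 0.51 in SE and 0.90 in GLA-SE tumors. With panel median scaling Cd48 was called lower, not higher, in GLA-SE than in PBS tumors. The log2 fold change was 0.78 for GLA-SE against PBS (standard error 0.14, adjusted p = 0.00153 by edgeR's quasi-likelihood test), 0.38 for SE against PBS (standard error 0.11, adjusted p = 0.256 by edgeR) and 0.41 for GLA-SE against SE (standard error 0.18, adjusted p = 0.284 by edgeR).

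Cd244, the receptor for Cd48 on NK cells and on activated or exhausted CD8 T cells, was near the limit of the assay, with deposited counts of 12 to 35 and 4 tumors under the threshold count of 20 named in the methods. Normalized counts were 19.0, 18.7, 15.3 and 9.54 in PBS tumors, 20.3, 36.4, 27.6 and 24.5 in GLA-SE tumors and 12.7, 23.5, 17.4 and 34.3 in SE tumors. GLA-SE and PBS tumors were separated by little more than 1 normalized count, and SE tumors, from 12.7 to 34.3, overlapped both groups. The log2 fold change for GLA-SE against PBS was 0.80 (standard error 0.28, adjusted p = 0.0288 by edgeR's quasi-likelihood test), and the adjusted p stayed under 0.05 in 4 of the 8 fits that left out 1 tumor. Without PBS replicate 3, PBS replicate 4, GLA-SE replicate 2 or GLA-SE replicate 3 it was 0.0621, 0.0614, 0.0782 and 0.0504 by edgeR.

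Sh2d1a, the adaptor, is expressed in T and NK cells, and its human counterpart is the gene of X-linked lymphoproliferative disease. PBS tumors had 182, 72.9, 119 and 128 normalized counts, GLA-SE tumors 171, 146, 257 and 275, and SE tumors 65.3, 65.4, 84.7 and 192. PBS replicate 1 lay within the GLA-SE range, and Sh2d1a was the 1 SLAM gene not called, since its log2 fold change was 0.76 (standard error 0.32, adjusted p = 0.0586 by edgeR's quasi-likelihood test, exact permutation p = 0.0857). Leaving out PBS replicate 1 or GLA-SE replicate 2 brought the adjusted p to 0.0276 and 0.0398 by edgeR, and DESeq2 with the reference genes gave 0.0343. Of the SE tumors only replicate 4 reached the PBS mean, and SE against PBS gave -0.31 (standard error 0.46, adjusted p = 0.672 by edgeR), which was -0.81 without SE replicate 4 and -0.08 without PBS replicate 1.

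The 6 genes whose GLA-SE and PBS tumors did not overlap each had an exact permutation p of 0.0286, the lowest value possible with groups of 4, which Benjamini-Hochberg adjustment across the 750 genes brought to 0.0441. The p-values describe the spread between these tumors, each from a separate mouse.

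**Figure D2:**
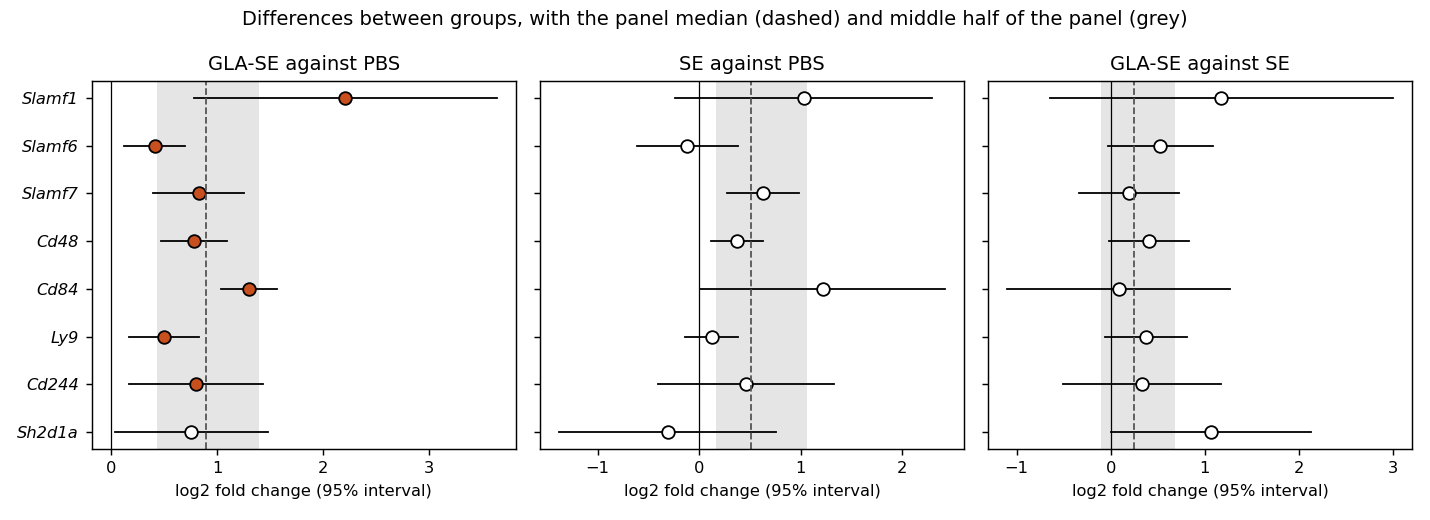
Log2 fold change (x axis) of each SLAM gene in the 3 comparisons, with 95% intervals from edgeR's fit. Filled points passed an adjusted p of 0.05, the dashed line is the panel median (0.90, 0.51 and 0.25) and the grey band the span between the quartiles of the 750 genes; the filled points of GLA-SE against PBS rest on the reference genes, and 6 of these 8 differences are negative under panel median, TMM or DESeq2 size factor scaling.

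The emulsion alone was compared with PBS to see how much of the difference needed no agonist. By edgeR's quasi-likelihood test none of the 8 SLAM genes was called higher or lower in SE tumors, as none of the panel was (0% higher and 0% lower). At an unadjusted p under 0.05, 3 of the 8 were higher (Slamf7, Cd48 and Cd84), against 17.1% of the panel. SE tumors lay wholly above PBS tumors for Slamf7 and Cd48 (exact permutation p = 0.0286 each), against 8% of the panel. DESeq2 with the same reference genes called these 2 genes, at an adjusted p of 0.00156 each, and 6.27% of the panel higher, whereas limma and DESeq2 with its own size factors called none of the 8. The median log2 fold change was 0.42 for the 8 genes and 0.51 for the panel. Spread was larger in this group, with a median coefficient of variation over the 8 genes of 35.2% in SE tumors, 10.2% in PBS tumors and 23.2% in GLA-SE tumors, and over the panel of 52.7%, 16.6% and 23.2%.

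Between GLA-SE and SE tumors edgeR's quasi-likelihood test called none of the 8 SLAM genes, and 2.13% of the panel higher and 0% lower. Sh2d1a was the 1 gene of the family with an unadjusted p under 0.05 (log2 fold change 1.07, 95% interval 0.00 to 2.13), against 17.5% of the panel. Cd48 was the 1 gene whose groups did not overlap (log2 fold change 0.41, 95% interval -0.01 to 0.83, exact permutation p = 0.0286), against 14.7% of the panel. Without SE replicate 4, the tumor with the fewest reference counts, Sh2d1a was called higher at a log2 fold change of 1.56 (adjusted p = 0.0278 by edgeR), as were 13.9% of the panel. Differences of the other genes had wide intervals. They ran from -1.10 to 1.27 for Cd84 (log2 fold change 0.08), from -0.65 to 3.01 for Slamf1 (1.18, or 0.15 without GLA-SE replicate 3 and 1.95 without SE replicate 4) and from -0.34 to 0.73 for Slamf7 (0.19). The GLA-SE against PBS value of the same gene lay inside the interval for Slamf1 and above it for Cd84 and Slamf7. The intervals of Slamf6 (0.53, from -0.03 to 1.09), Ly9 (0.38, from -0.06 to 0.82) and Cd244 (0.33, from -0.50 to 1.17) also held both 0 and their GLA-SE against PBS values. The GLA-SE against PBS values have 95% intervals of their own, from 1.03 to 1.57 for Cd84 and from 0.40 to 1.26 for Slamf7. These overlap the intervals of GLA-SE against SE, so no difference between the comparisons is shown. The comparisons share tumors, since the PBS, SE and GLA-SE groups each enter 2 of the 3.

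Since most of the panel rose with the reference gene scaling, the choice of scale decides the sign of small changes. Scaling each tumor to the panel median moved the median log2 fold change of the 750 genes in GLA-SE against PBS from 0.90 to -0.40, and 4 SLAM genes were then called lower and none higher, where 8.13% of the panel was called higher and 40.9% lower. These 4 were Slamf6 (-0.90), Ly9 (-0.83), Cd48 (-0.53) and Slamf7 (-0.50). TMM scaling called 1 of the 8 higher and 2 lower, where 148 of the 750 panel genes were called higher and 168 lower. DESeq2 with its own size factors called 2 of the 8 higher and 2 lower, where 193 panel genes were called higher and 153 lower. Slamf1 and Cd84 were above the panel median with the reference genes and in each of 10 other settings, and the other 6 genes were below it. These settings refit the same tumors, and a change of scale moves all genes nearly together, so their agreement is no separate evidence. With the reference genes, the 95% intervals of Slamf1, Slamf7, Cd48, Cd244 and Sh2d1a held the panel median of 0.90. The interval of Cd84 lay above it, and those of Slamf6 and Ly9 lay below it.

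**Figure D3:**
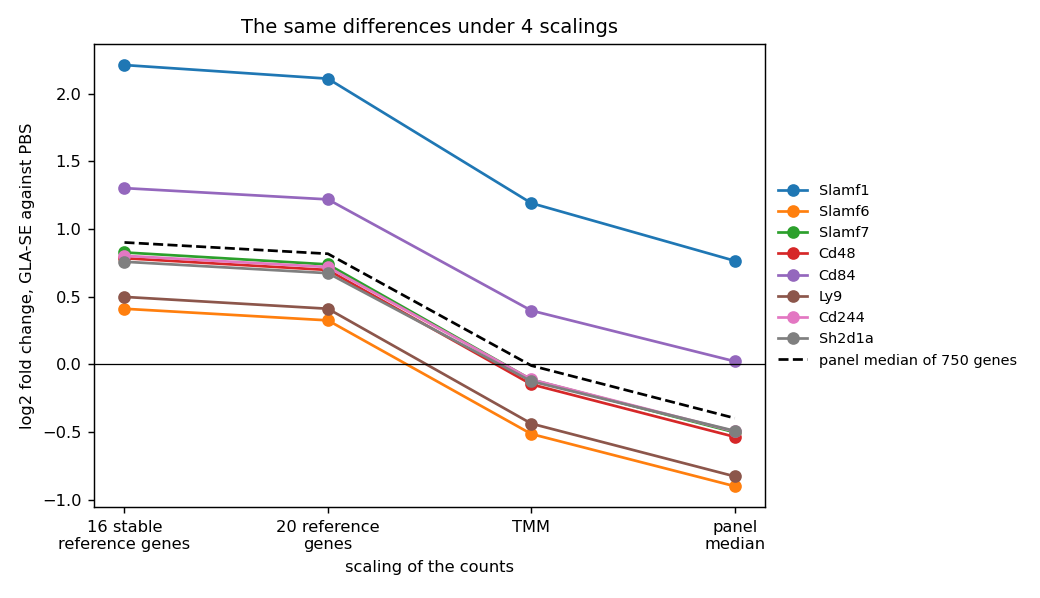
Log2 fold change of GLA-SE against PBS (y axis) for each SLAM gene under 4 scalings of the counts (x axis), with the median of the 750 genes as a dashed line. The lines run nearly parallel, so Slamf1 and Cd84 stay above the panel median under each scaling shown, whereas the sign of the other 6 turns from positive to negative with TMM and the panel median.

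A measure that needs no scaling is the level of each gene relative to the geometric mean of the 8 genes in the same tumor. It was chosen after the values were seen and was given no test. The 8 values of a tumor balance each other, so a gain of some genes necessarily lowers others. The family mean includes the low-count Cd244, and Slamf1 with its far higher value in GLA-SE replicate 3. No share of the panel without overlap was computed for this measure. On this log2 scale Slamf6 was 0.84 to 1.28 above the family mean in GLA-SE tumors and 1.37 to 1.84 in PBS tumors, with no overlap and a difference of -0.49. Ly9 was 1.86 to 1.95 above it in GLA-SE tumors and 2.13 to 2.46 in PBS tumors, also with no overlap and a difference of -0.41. Slamf1 and Cd84 gained against the family, by 0.89 and 0.41, with overlapping groups. For Slamf7, Cd48, Cd244 and Sh2d1a the group means differed by -0.13 to -0.07, with overlapping groups, although single tumors varied, as for Sh2d1a from -1.80 to -0.69 among PBS tumors.

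The family's profiles over the 12 tumors were compared by the root mean square difference of log2 normalized counts, each gene centered on its own mean. Cd48 and Ly9 were the closest pair (0.17), and Slamf1 and Slamf6 the farthest apart (1.07). Over the rest of the panel, Cd84 was nearest to Colec12 (0.11) and C1qb (0.14), where its median distance to a panel gene was 0.61. Sh2d1a was nearest to Eomes (0.28) and Cd8a (0.28) against a median of 0.68, and Slamf7 to H2-Aa (0.16) and H2-M3 (0.16) against 0.61. Ly9 was nearest to Irf5 (0.090) and Lcp1 (0.11) against 0.60, Cd48 to Itgb3 (0.10) and Lcp1 (0.11) against 0.55, and Slamf6 to Cd37 (0.17) and Nfkb2 (0.18) against 0.76. Slamf1 and Cd244 had no close neighbor, with Trem1 at 0.47 and Prg2 at 0.48 for Slamf1 (median 0.91) and Cd59b and Tnfsf8 at 0.31 each for Cd244 (median 0.60). These distances describe 12 tumors that share their scaling.

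Markers of other cell types moved with several SLAM genes, and their part in these results was not tested. All 8 monocyte and macrophage markers were called higher in GLA-SE against PBS with the reference genes, and stayed above 0 under the panel median (median log2 fold change 0.34), TMM (0.71) and DESeq2 size factor scalings (0.78). Their summed normalized counts were 28997 to 37214 in PBS tumors and 83925 to 124737 in GLA-SE tumors. Most of each sum was Lyz2, with means of 29229 in PBS and 83722 in GLA-SE tumors. In SE replicates 1 to 4 the sums were 24340, 30887, 73098 and 106486, the same order as that of Cd84 in these tumors. This order was not particular to Cd84 or to these markers, since Cd48 and the T cell and NK cell sums had it too. Of the 8 T cell markers 4 were called higher with the reference genes, whereas 0 of 8 were above 0 with panel median scaling, 3 with TMM and 5 with DESeq2 size factors. The share of the panel called higher, 68.4%, is the background for each of these lists. The T cell markers summed to 908 to 2562 in PBS tumors and 2564 to 3620.3 in GLA-SE tumors. Their sums were 765, 947, 1380.1 and 5317 in SE replicates 1 to 4, where replicate 4 was also the highest for Sh2d1a. Of the 5 NK cell markers 3 were called higher with the reference genes (Klrd1, Klrk1 and Ncr1). Klrb1c, a low-count gene with means of 18.3 normalized counts in GLA-SE and 21.9 in PBS tumors, was at -0.26. It was called lower with panel median (-1.54), TMM (-1.16) and DESeq2 size factor scaling (-1.11), under which Eomes was also below 0. Klrd1, Klrk1 and Ncr1 stayed above 0 under these 3 scalings, and Klrk1 was called higher with DESeq2 size factor scaling (0.55, adjusted p = 0.0248 by DESeq2). The NK cell markers summed to 254 to 633 in PBS tumors, 283 to 767 in SE tumors and 903 to 1021 in GLA-SE tumors.

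The 7 B-cell markers, the lineage of A20 itself, had a median log2 fold change of -0.22, and all 7 were called lower with panel median, TMM or DESeq2 size factor scaling. Cd79b (log2 fold change -0.41, adjusted p = 0.00637) and Ms4a1 (-0.44, adjusted p = 0.00781) were lower in GLA-SE tumors relative to the reference genes by edgeR's quasi-likelihood test, and the other 5 were not called. Their sums were 19769 to 23116 in PBS tumors, 13915 to 22514 in SE tumors and 16296 to 18966 in GLA-SE tumors. Slamf6 and the B-cell sum were both lowest in SE replicate 4. In GLA-SE tumors the B-cell sums were below all PBS tumors, while Slamf6 was higher than in PBS tumors relative to the reference genes and lower with panel median, TMM and DESeq2 size factor scaling. All 4 neutrophil markers, all 3 plasma cell markers and 1 of 3 dendritic cell markers were called higher in GLA-SE against PBS. Of these lists only the neutrophil markers stayed above 0 in full under panel median, TMM and DESeq2 size factor scaling. In GLA-SE replicate 3, which held the highest Slamf1, Slamf7, Cd48, Ly9 and Slamf6 counts of its group, the neutrophil markers summed to 9135 against 797 to 2169.9 in the other GLA-SE tumors. The normalized panel median was also the highest of the group in this tumor (471).

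**Figure D4:**
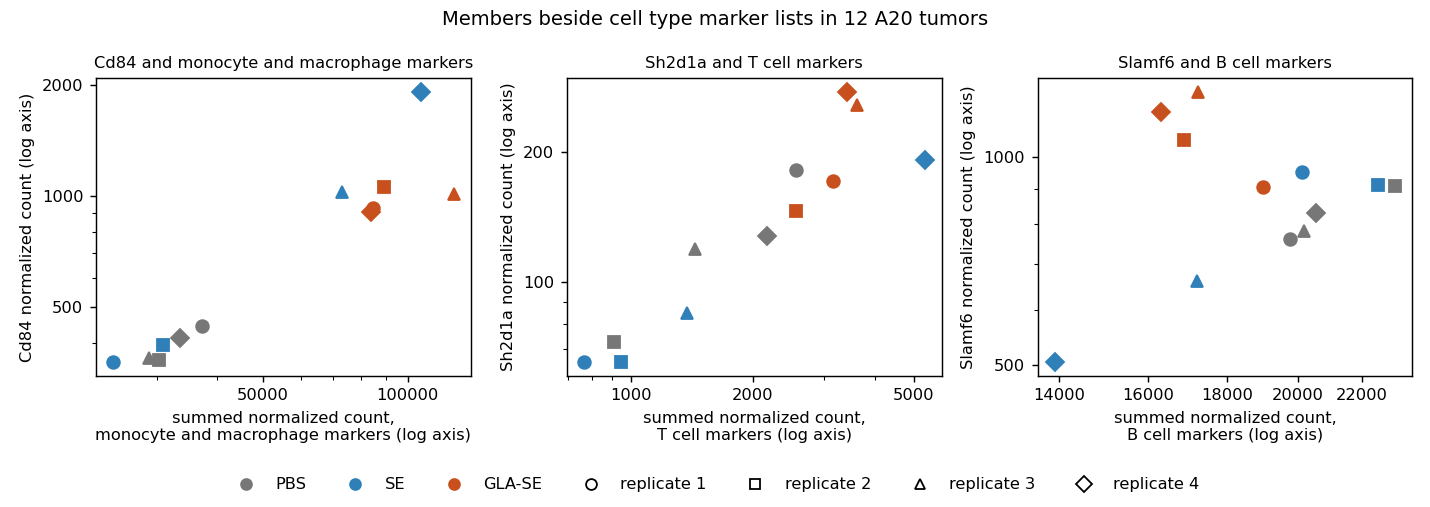
Normalized counts of Cd84, Sh2d1a and Slamf6 (y axes, log) against the summed normalized counts of monocyte and macrophage, T cell and B-cell markers (x axes, log) in the 12 tumors, 1 point each. Cd84 is at most 445 in the 6 tumors with marker sums of at most 37214 and at least 907 in the other 6. The normalized panel median divides the same tumors, at most 179 in the first 6 and at least 273 in the others. This split is therefore not particular to Cd84, which is no longer called higher in GLA-SE against PBS with panel median scaling. On this reference gene scale 3 of the 4 GLA-SE tumors have more Slamf6 than all others, while with panel median, TMM or DESeq2 size factor scaling Slamf6 is lower in GLA-SE than in PBS tumors.

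Among genes that act with the SLAM receptors, 4 of 9 were called higher in GLA-SE against PBS relative to the reference genes and none lower, where 68.4% of the panel was called higher. Their median log2 fold change was 0.53, but all 9 were below 0 with panel median (median -0.76, 5 called lower), TMM (-0.38, 3 called lower) and DESeq2 size factor scaling (-0.32, 3 called lower). The 4 were Fyn, the kinase that the Sh2d1a product recruits (0.56, adjusted p = 0.0233), Inpp5d, an inositol phosphatase (0.53, adjusted p = 0.00472), Lck, a T cell kinase (0.77, adjusted p = 0.0201), and Nfkb1, an NF-kappaB subunit (0.45, adjusted p = 0.0236), all by edgeR's quasi-likelihood test. None of the 9 exceeded the panel median of 0.90. Sh2d1b1, the other adaptor of the family, had 41.1 ± 4.69 normalized counts (SD, n = 4) in GLA-SE and 26.0 ± 9.46 in PBS tumors, and its log2 fold change of 0.66 was not called (adjusted p = 0.0527 by edgeR).

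Of 7 genes of T follicular helper cells, whose help to B cells depends on SLAM contacts, 5 were called higher in GLA-SE against PBS relative to the reference genes, where 68.4% of the panel was. Panel median scaling left 2 of the 7 above 0 (Icos and Pdcd1), called none higher and called Bcl6, Il21 and Cd40lg lower, while TMM left 3 above 0 (with Maf) and called none higher. DESeq2 size factor scaling left the same 3 above 0 and called 1 of them higher, Icos (0.90, adjusted p = 0.0340 by DESeq2). Those called with the reference genes were Icos (log2 fold change 1.80, adjusted p = 0.00781), Pdcd1 (1.30, adjusted p = 0.0337), Maf (1.11, adjusted p = 0.0211), Cxcr5 (0.86, adjusted p = 0.0197) and Il21 (0.67, adjusted p = 0.0254), by edgeR's quasi-likelihood test. Il21 was a low-count gene, with means of 21.5 normalized counts in GLA-SE and 13.5 in PBS tumors. Bcl6, the factor that defines these cells and also a germinal center B-cell gene, had a log2 fold change of -0.43 that was not called (adjusted p = 0.0898 by edgeR), with all GLA-SE tumors below all PBS tumors, and it was called lower with panel median (-1.68), TMM (-1.31) and DESeq2 size factor scaling (-1.24). None of these 16 genes was called in SE against PBS or in GLA-SE against SE by edgeR, where 2 and 3 of them had an unadjusted p under 0.05. DESeq2 with the reference genes called 1 of the 16 in SE against PBS and 2 in GLA-SE against SE.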

How the data were processed

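Total RNA from 12 A20 tumors was extracted with the Qiagen Allprep kit and counted on the PanCancer Immune Profiling Panel for mouse (nCounter). The authors deposited 1 table of barcode counts per gene for 770 genes. Their methods name normalization in nSolver with automatically selected housekeeping genes, but the values deposited are whole counts whose reference genes differ between tumors, so they were used as not normalized. No aligner or genome build applies to these counts. Groups came from the sample titles.

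The geNorm procedure kept 16 of 20 reference genes over all 12 tumors, so that each tumor had 1 normalized count in every comparison, and counts were scaled to their geometric mean. The other 750 genes were compared, 4 tumors against 4, with edgeR 4.0.16 (quasi-likelihood test, R 4.3.3), without a filter or covariates, with Benjamini-Hochberg adjustment across all 750 genes and a threshold of 0.05. A two-sided exact permutation test used the 70 assignments of tumors. Alternatives were all 20 reference genes, reference genes chosen per comparison, panel median and TMM scaling, DESeq2 1.42.0 with its own or the reference size factors, limma 3.58.1 on log2(normalized count + 1), a filter of 20 counts in at least 4 tumors, 1 fit of all 12 tumors, the replicate number as a block, and leaving out each tumor. The edgeR fit was tested on simulated data.

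The total count per tumor was 810260 to 1612415, and precision is limited by 4 tumors per group. For Cd244, and for list genes such as Klrb1c and Il21, it is also limited by counts near or under 20. Probes for negative controls were not used here. No pair of tumors had identical counts. The text names all 8 members, genes of the SLAM partner and T follicular helper lists that passed the test, and for each member the 2 nearest panel genes. Sh2d1b1, Bcl6, Cd40lg and the named B-cell and NK cell markers were added after their values were seen. The members and lists were chosen with earlier results of these data known. Promoters are from RefSeq (GRCm38.p6), and matplotlib 3.10.9 (Python 3.11.15) drew the figures.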

Additional observations from a re-analysis of the deposited data

Results flagged for a closer look

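Each gene of the family was searched in each group for a tumor far from the other 3, as measured by its gap to the nearest of them over the group's range. Of 24 groups of values 5 held such a tumor, where chance gives about 1 in 20 (1.2 of 24) for independent, normally distributed values. The groups share tumors and scaling, so they are not independent, and 1 odd tumor can be counted for several genes. All 5 concern SE replicate 4 or GLA-SE replicate 3, and the cause was not tested.

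In SE replicate 4, Slamf1 was at 149 normalized counts against 32.0 to 48.1 in the other SE tumors, and Sh2d1a at 192 against 65.3 to 84.7. This tumor had 959 counts as the geometric mean of its reference genes, the fewest of the series, so its normalized counts rest on deposited counts of 74 and 95.

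In GLA-SE replicate 3, Slamf1 was at 374 normalized counts against 49.9 to 85.1 in the other GLA-SE tumors, Cd48 at 2582 against 1750.4 to 1841, and Ly9 at 2517 against 1653 to 1756. The normalized panel median of this tumor was also the highest of its group, 471 against 323 to 372. High values there were thus not particular to these genes. With this tumor left out, the log2 fold changes of GLA-SE against PBS were 1.19 for Slamf1, 0.63 for Cd48 and 0.34 for Ly9, and all 3 kept an adjusted p under 0.05 by edgeR's quasi-likelihood test.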

How the results depend on the processing

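In GLA-SE against PBS the number of SLAM genes called was 7 with the reference genes, 4 with panel median scaling, 3 with TMM and 4 with DESeq2's own size factors. Signs turned for Slamf6 (-0.90, -0.51 and -0.45 on the log2 scale under these 3 scalings), Slamf7 (-0.50, -0.11 and -0.053), Cd48 (-0.53, -0.15 and -0.086), Ly9 (-0.83, -0.44 and -0.38), Cd244 (-0.49, -0.11 and -0.047) and Sh2d1a (-0.49, -0.12 and -0.070). Panel genes called numbered 516 with the reference genes, 316 with TMM and 255 with all 12 tumors in 1 fit, and the SLAM partner and T follicular helper genes 9, 4 and 4, or 5 with DESeq2's own size factors. Panel median scaling called 61 panel genes higher and 307 lower, and DESeq2's own size factors 193 higher and 153 lower. The fit of all 12 tumors ended the calls of Slamf6 (adjusted p = 0.117 by edgeR) and Cd244 (0.0835), and panel median and TMM scaling those of Slamf1 (0.77 and 1.19), with Cd84 at 0.02 under the panel median. In SE against PBS, Ly9 turned to -0.20, -0.24 and -0.18 under the 3 scalings, Cd244 to -0.034 and -0.0043 under the first 2 and Cd48 to -0.022 under TMM. DESeq2 called 12 panel genes there with its own size factors, and 53 panel genes, 2 SLAM genes and 1 list gene with the reference genes, against none by edgeR (134 panel genes at an unadjusted p under 0.05). In GLA-SE against SE the 3 scalings gave Slamf6 -0.61, -0.10 and -0.20, Slamf7 -0.80, -0.33 and -0.42, Cd48 -0.55, -0.090 and -0.18, Cd84 -0.36, -0.074 and -0.12, Ly9 -0.63, -0.16 and -0.25, and Cd244 -0.47, -0.078 and -0.14. Panel genes called there were 16 with the reference genes, 0 with the panel median, 3 with TMM, 80 and 119 with DESeq2's own and reference size factors and 79 with all 12 tumors in 1 fit, and list genes 2, 2 and 1 in the last 3. The constructions differ in scaling or in pooled spread, and the cause of each difference was not tested.

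With each tumor left out in turn, GLA-SE against PBS called 5 to 8 SLAM genes, 443 to 504 panel genes and 4 to 11 list genes. SE against PBS called none, and Slamf6 ran from -0.25 to 0.035. GLA-SE against SE called 0 to 1 SLAM genes, 4 to 105 panel genes and 0 to 2 list genes, the highest without SE replicate 4 each time, with Slamf7 from -0.02 to 0.32 (lowest without GLA-SE replicate 3) and Cd84 from -0.19 (without SE replicate 1; -0.17 without SE replicate 2) to 0.72. Slamf1 ran there from 0.15 (without GLA-SE replicate 3) to 1.95 (without SE replicate 4), and Sh2d1a in SE against PBS from -0.81 (without SE replicate 4) to -0.08 (without PBS replicate 1).

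Tumors with the same replicate number did not deviate together (correlations of -0.25 to 0.18 over genes), so the numbers do not pair them. With the replicate number as a block, 6 SLAM genes were called in GLA-SE against PBS (Slamf6 at 0.40 with an adjusted p of 0.0530 by edgeR) and 0 panel genes in GLA-SE against SE. Of 144 log2 fold changes recomputed in each comparison, 112 in GLA-SE against PBS, 135 in SE against PBS and 122 in GLA-SE against SE kept direction and side of the threshold.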
